A study of Mus musculus with 8 samples.

Results

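Alpha-defensins, called cryptdins in the mouse, are small antimicrobial peptides. They are stored in the granules of Paneth cells, which sit at the base of the crypts of the small intestine. In the mouse the metalloproteinase Mmp7 cleaves their proforms to the active peptide within the granules, before release. The mouse genes form a tandem cluster of closely similar copies, and the number and sequence of these copies differ between inbred strains, C57BL/6 and 129 among them. Wnt signalling through beta-catenin and TCF4 is known to drive their transcription in Paneth cells. The probes described here were those of the alpha-defensin genes Defa3, Defa29, Defa32, Defa37 and Defa42, which were chosen because the same 2 of the 8 embryos were low. These were 5 of the 20660 genes named on the array, and they had 9 of its 55681 probes. The low signal in that pair of embryos is therefore what the probes were selected on and is given as a description, with no test.

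Gene expression was measured on one-colour Agilent arrays, 1 array for each of 8 embryos at E8.5. All 8 embryos were wild type for Eed and came from wild-type mothers. The labels give the fathers and mothers as C57bl6/129, whereas a legend of the paper gives C57BL/6J mothers for this comparison, so the strain of the mothers is not settled. Of these, 4 were sired by Eed wt/wt fathers (WT1 to WT4) and 4 by Eed hypo/wt fathers (HET1 to HET4), which carried 1 copy of the hypomorphic allele Eedl7Rn5-1989SB. Eed encodes a core component of Polycomb Repressive Complex 2. WT1, WT3, HET2 and HET4 were female and the others male. The labels do not give the number of fathers, the paper's legends differ on it, and neither ties an embryo to a father. Only the sample codes of WT2, WT3 and WT4 share their first part. Each slide held the arrays of a single kind of father, so an effect of the slide and one of the father cannot be told apart.

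A probe was counted as detected in an embryo where the scanner software marked its spot as well above background, and between 29207 and 39559 probes were detected per array. Precision was limited by there being 8 arrays. All 9 listed genes typical of the E8.5 embryo, such as T, Tbx6 and Nkx2-5, were detected in all 8 embryos. WT1, HET3 and HET4 stood apart in different ways. HET4 had a median local background of 133 units, a median negative control signal of 156 and the fewest probes detected. The negative control signal was 43 to 53 in the other 7 embryos. Their local background was 50 to 51 in WT1 to WT4 and 30 to 32 in HET1 to HET3, so it differed between the father groups. WT1 and HET3 had raised signal near background. Of 1437 probes for olfactory and vomeronasal receptors, genes of sensory neurons, 474 were detected in WT1 and 538 in HET3, against 51 to 182 in the other 6 embryos.

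One probe of each of the 5 genes was low in WT3 and HET2 and high in the other 6 embryos. Values are the log2 signal minus the 75th percentile of the array, so that 0 is the 75th percentile and each unit below it is a 2-fold lower signal. The Defa3 probe A_55_P2077649 had -2.18, -1.44, -5.38 and -0.83 in WT1 to WT4 and -1.18, -6.42, -2.12 and -0.67 in HET1 to HET4. Its unscaled intensity was 27.4 in WT3 and 12.5 in HET2, and ran from 208.7 to 705.2 in the other embryos. The spot was well above background in 6 embryos and in neither of the low pair.

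The Defa32 probe A_55_P1961408 had -2.11, -1.44, -5.66 and -0.56 in WT1 to WT4 and -0.89, -6.60, -1.63 and -0.54 in HET1 to HET4. The Defa37 probe A_55_P1995018 had -3.52, -2.87, -7.65 and -2.10 in WT1 to WT4 and -2.51, -6.59, -2.76 and -2.16 in HET1 to HET4. Both probes were detected in the same 6 embryos as the Defa3 probe. The Defa42 probe A_55_P1990205 had -3.72, -3.22, -7.69 and -2.36 in WT1 to WT4 and -2.85, -7.56, -3.86 and -2.36 in HET1 to HET4. The Defa29 probe A_55_P1979007 had -4.18, -4.08, -7.94 and -3.29 in WT1 to WT4 and -3.66, -7.63, -4.60 and -2.99 in HET1 to HET4. It was detected in 5 embryos, since HET3 also fell short of the background limit.

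**Figure D1:**
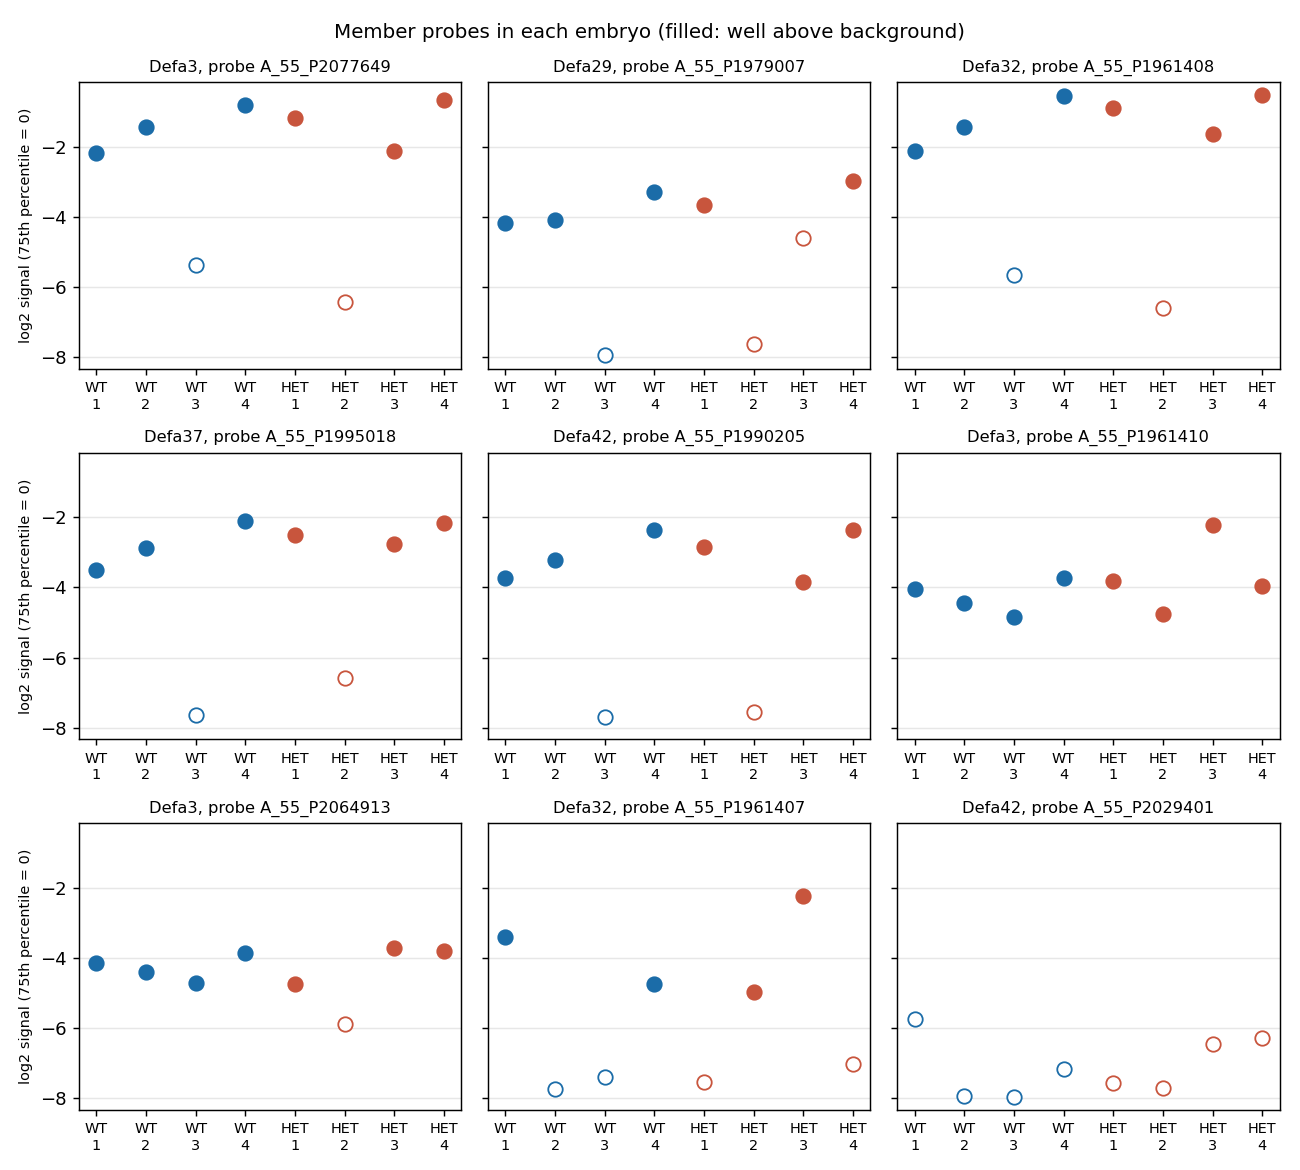
Log2 signal of the 9 alpha-defensin probes in each embryo, with the 75th percentile of each array at 0. Blue points are embryos of Eed wt/wt fathers and red points those of Eed hypo/wt fathers, and open points were not well above background. In the first 5 panels WT3 and HET2 lie at least 3.03 log2 units below every other embryo, and in the last 4 panels they do not stand apart.

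Between the second lowest and the next embryo the signal of these 5 probes differed by 3.03 to 3.70 log2 units, that is by 8.18-fold to 13.0-fold. Since neither low embryo was well above background, the differences have only a bound on the low side. The 5 probes have 1 spot each on an array. The low pair held 1 embryo from each kind of father, and both were female. The other females, WT1 and HET4, were high, and HET4 had the highest value of the 8 embryos for the Defa3, Defa29, Defa32 and Defa42 probes. The gap does not involve the value of HET4, and the part of its high background in its values was not tested. WT3 shared the first part of its code with WT2 and WT4, which were both high. With WT1 and HET3 left out, the smallest gap of the 5 probes was 3.55 and the largest 4.34. On another background correction (normexp with quantile normalization) WT3 and HET2 were still the lowest embryos for all 5 probes, but the gap shrank to between 0.23 and 1.62 and reached 1 log2 unit for 2 of them.

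The 6 embryos outside the low pair varied far less, over a range of 1.42 to 1.61 log2 units per probe. WT1 or HET3 was the lowest of these 6 for each of the 5 probes, and WT4 or HET4 the highest. Over the 8 embryos the 10 pairs of probes had Pearson's r from 0.959 to 0.997. Over the 6 embryos outside the low pair r ran from 0.749 to 0.988. These are descriptions of the same 8 arrays, which share one scaling per array, and near-identical transcripts can bind the same probe.

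Against the whole array, WT3 and HET2 were the lowest pair for 3.78% of the 33081 probes that were detected on at least 4 arrays and had a value on all 8, and for 6 of the 9 alpha-defensin probes. They were lowest with a gap of at least 2 log2 units for 13 probes, 0.0393% of those detected, and for 5 of the 9 alpha-defensin probes. The choice of the probes fixed these counts, so nothing is read from them. The median gap of detected probes was 0.062 log2 units, and 44 probes had a gap of at least 2 for any pair of embryos. The range over the 8 embryos was at least 2 log2 units for 13% of detected probes and for 9 of 9 alpha-defensin probes, of which 8 were detected on at least 4 arrays. Of the 13 probes, 5 were the alpha-defensin probes above, 7 had no gene symbol and 1 was for Sycp1.

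**Figure D2:**
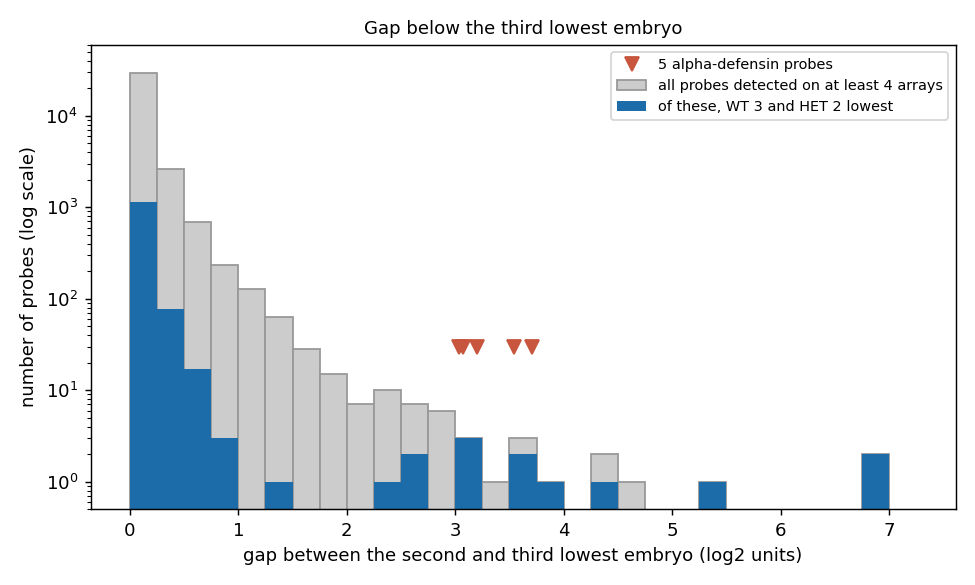
Number of detected probes (log scale) by the gap between the second and the next lowest embryo, in log2 units. Grey bars are all 33081 probes, blue bars those with WT3 and HET2 lowest, and triangles mark the 5 alpha-defensin probes, at gaps of 3.03 to 3.70.

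Other probes of the same genes gave different profiles. The second Defa3 probe, A_55_P1961410, was detected in all 8 embryos and had -4.04, -4.44, -4.85 and -3.73 in WT1 to WT4 and -3.82, -4.77, -2.22 and -3.96 in HET1 to HET4. WT3 and HET2 were again its lowest embryos, but by a gap of only 0.33 log2 units, and HET3 was its highest. The third Defa3 probe, A_55_P2064913, had -4.14, -4.42, -4.72 and -3.87 in WT1 to WT4 and -4.75, -5.89, -3.72 and -3.81 in HET1 to HET4, with HET2 and HET1 lowest. The second Defa32 probe, A_55_P1961407, had -3.41, -7.73, -7.40 and -4.75 in WT1 to WT4 and -7.53, -4.97, -2.24 and -7.02 in HET1 to HET4. It was detected in WT1, WT4, HET2 and HET3, so HET2 was among its higher embryos. The second Defa42 probe, A_55_P2029401, ran from -7.96 to -5.74 and was well above background on 0 arrays.

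Probes of 1 gene thus disagreed for Defa3, Defa32 and Defa42. Over the 8 embryos the first and second Defa3 probes had r = 0.51, and over the 6 embryos outside the low pair r = -0.41. HET3 was the highest embryo for 3 of these 4 probes and for none of the 5 probes with the low pair. It was also the highest for 34.5% of detected probes and for 76.5% of the receptor probes. The part of the raised near-background signal of HET3 and WT1 in these 4 profiles was not tested.

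The remaining alpha-defensin genes named on the array had 10 probes, of 9 genes, and 3 of these probes were detected on at least 4 arrays. The Defa23 probe A_55_P2104071 was detected in all 8 embryos, with -2.46, -3.51, -3.68 and -3.09 in WT1 to WT4 and -3.85, -3.73, -1.43 and -2.88 in HET1 to HET4. The Defa27 probe had -3.71, -5.93, -7.73 and -5.09 in WT1 to WT4 and -5.51, -4.85, -2.15 and -6.00 in HET1 to HET4. The Defa40 probe had -3.49, -5.34, -5.89 and -4.33 in WT1 to WT4 and -5.23, -5.83, -2.83 and -4.63 in HET1 to HET4. HET3 was the highest embryo for all 3 and for 7 of the 10 probes. WT3 and HET2 were lowest for Defa40, by 0.49 log2 units, and for Defa26, by 1.63, where only WT2 and WT4 were detected. Defa38 was high in WT4, at -1.39, and had -4.13 in HET3 and at most -6.69 in the other 6 embryos. Of 3 alpha-defensin pseudogenes with a probe, Defa-ps1 was detected in 7 embryos, all but WT3 (-6.28), and its gap was 0.26.

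In the gene order of assembly GRCm38.p6, used here for names and order only, 28 Defa genes lie on chromosome 8. Of these, 14 had a probe named for them. Defa3, Defa29, Defa42, Defa32 and Defa37 are the 11th, 14th, 18th, 20th and 21st of the 28. Defa5 and Defa27 lie between Defa3 and Defa29. The Defa5 probe was not well above background in any embryo, and the Defa27 probe had HET2 among its higher embryos. The 5 nearest genes without a Defa symbol on each side had 0 probes named for them. Of the 11 probes of the nearest genes that had one, a choice made after the data were seen, the Defb33 probe alone was detected on at least 4 arrays, and WT3 and HET2 were the lowest pair for none of the 11. Defb33 encodes a beta-defensin, of the sister family of epithelial antimicrobial peptides.

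The 10 probes outside the Defa symbols most like the mean of the centred alpha-defensin probes had the same lowest pair. They were ranked by Pearson's r over the 8 embryos among 4277 detected probes with a range of at least 2 log2 units. The low values of WT3 and HET2 dominate that mean, so the shared pair follows largely from the ranking and is a description only. The first 8, with r from 0.954 to 0.973, had no gene symbol. Over the 6 embryos outside the low pair, these 8 had r from 0.909 to 0.998 with the mean of the 5 probes with the low pair. Probe A_55_P2018865, the most alike, had -0.78, -0.12, -7.86 and 0.64 in WT1 to WT4 and 0.41, -7.68, -0.37 and 0.92 in HET1 to HET4. Its intensity was 4.89 in WT3 and 5.25 in HET2, and between 550.3 and 2131 in the other embryos, a gap of 6.90 log2 units. Probe A_55_P2004208 had 1.32, 2.07, -5.50 and 2.88 in WT1 to WT4 and 2.49, -6.10, 1.52 and 2.92 in HET1 to HET4, with a gap of 6.82. For these probes the high embryos lay near or above the 75th percentile of their arrays.

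Of the 8 unnamed probes, 3 were well above background in all 8 embryos, WT3 and HET2 included. One of them, A_55_P2018862, had -0.28, 0.23, -4.10 and 1.16 in WT1 to WT4 and 0.74, -4.06, 0.08 and 1.17 in HET1 to HET4. Another, A_55_P2076994, had 0.04, 0.27, -1.29 and 0.92 in WT1 to WT4 and 0.51, -1.38, 0.30 and 1.03 in HET1 to HET4, the smallest gap of the 8 at 1.33. The signal of the low pair was thus reduced but measurable on these 3 probes. The probes carried RefSeq accessions in 5 of 8 cases, none with a symbol in the table used, against 5.05% without a symbol among all 28685 probes with a RefSeq accession. What gene they measure is therefore not given here.

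The ninth probe was a noncoding interval, A_30_P01021125, which was detected in 4 embryos and had a gap of 0.84. Over the 6 embryos outside the low pair it had r = -0.43 with the mean of the 5 probes. The tenth was for Sycp1, a component of the synaptonemal complex that pairs chromosomes in meiosis. It had -4.81, -4.55, -7.16 and -4.64 in WT1 to WT4 and -3.53, -7.13, -4.49 and -4.69 in HET1 to HET4. Its gap was 2.32, and HET1 was its highest embryo, which was so for none of the 5 alpha-defensin probes.

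**Figure D3:**
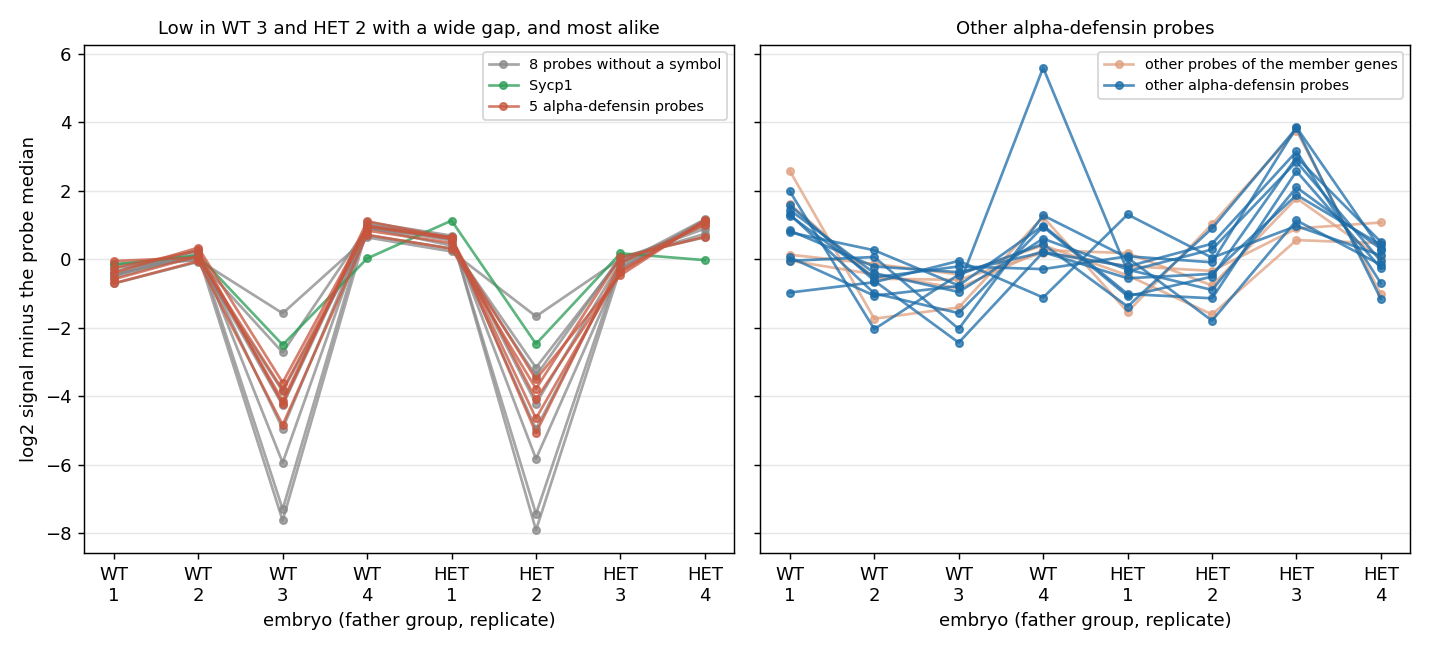
Log2 signal minus the median of each probe, by embryo. Left, the 5 alpha-defensin probes with the low pair (red), 8 unnamed probes (grey) and Sycp1 (green), all lowest in WT3 and HET2. The 8 unnamed probes were those most like the mean of all 9 probes of the member genes. Right, the other 4 probes of the same genes (orange) and the 10 probes of the other alpha-defensin genes (blue), of which HET3 was the highest embryo for 3 and 7.

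The father's genotype was compared over all 33106 tested probes with limma. No probe was called at an adjusted p under 0.01 and at least 2-fold (0% of tested probes), and 4.35% had an unadjusted p under 0.05. Of the 9 alpha-defensin probes 8 were tested, 0 were called and 0 had an unadjusted p under 0.05. The Defa3 probe A_55_P2077649 had a mean of -2.46 ± 2.02 (SD, n = 4) in embryos of Eed wt/wt fathers and -2.60 ± 2.62 (SD, n = 4) in those of Eed hypo/wt fathers, a log2 difference of -0.15 (SE 1.48). Those of Defa29, Defa32, Defa37 and Defa42 were 0.16, 0.03, 0.53 and 0.09, with SE from 1.31 to 1.62. All 5 differences were smaller than their standard errors, the groups overlapped, and the adjusted p from limma was 1 for each. The selection put 1 low embryo in each group and so widened the spread, and the missing calls are not read as equal levels.

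The sign of these differences rested on 1 embryo. Without HET2 the 5 differences ran from 1.13 to 1.56, and without WT3 from -1.12 to -0.67. Without HET4 they ran from -0.79 to 0.08. The Defa37 difference, for example, was 1.56 without HET2 and -0.67 without WT3. Of the other probes, Defa3 A_55_P1961410 had 0.57 (SE 0.53), Defa3 A_55_P2064913 had -0.25 (SE 0.48) and Defa32 A_55_P1961407 had 0.38 (SE 1.43), and limma gave an adjusted p of 1 for all 3. The difference of A_55_P1961410 was 0.08 without HET3 and 0.93 without HET2.

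**Figure D4:**
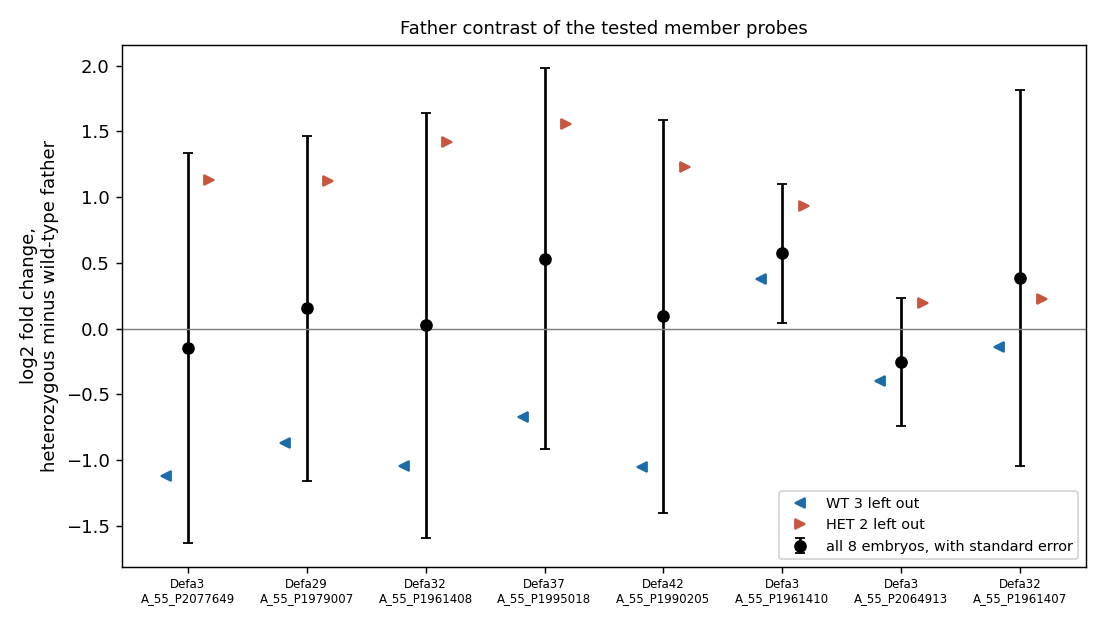
Log2 difference, HET minus WT embryos, for the 8 tested alpha-defensin probes. Black points with bars are the difference over all 8 embryos and its standard error, and triangles give it with WT3 (blue) or HET2 (red) left out. For the first 5 probes the difference was below 0 without WT3 and above 0 without HET2.

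Both low embryos were female, so the values that chose the probes also fixed the direction of their difference between the sexes, which is given as a description only. The fit of the embryo's sex, with father's genotype as a term, called 11 of all tested probes (0.0332%), and 3.27% had an unadjusted p under 0.05. Of the 8 alpha-defensin probes 0 were called and 0 were under 0.05, which became 5 under 0.05 without HET4 and 4 with each array shifted by its median, and nothing is read from these counts. The Defa32 probe A_55_P1961408 had a mean of -3.73 ± 2.87 (SD, n = 4) over the female embryos and of -1.13 ± 0.49 (SD, n = 4) over the male embryos, a log2 difference of -2.60 (SE 1.41). The differences of the Defa3, Defa29, Defa37 and Defa42 probes with the low pair were -2.27 (SE 1.33), -1.78 (SE 1.23), -2.42 (SE 1.24) and -2.26 (SE 1.34). Single embryos moved these differences. Without HET4 the 5 differences ran from -3.87 to -2.83, without HET2 from -1.67 to -0.97 and without WT3 from -1.83 to -0.91. Females and males overlapped, since HET4 was above at least 3 of the 4 males for all 5 probes.

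Genes that mark Paneth cells, the cells known to make alpha-defensins, were mostly not detected. Of 5 such genes with a probe, 2 were detected on at least 4 arrays. WT3 and HET2 were the lowest pair for 0 of their 6 probes, beside the 3.78% over all detected probes, so that few probes could show the pattern and nothing is read from the count. Mmp7, which activates the proforms, was well above background on 0 arrays. Lyz1, the Paneth cell lysozyme, was detected in 6 embryos, with -4.78 in WT3 and -4.05 in HET2 and between -5.93 and -3.34 in the others. Ang4, an antimicrobial ribonuclease, was detected in all 8, with -1.79 in WT3 and -0.84 in HET2 and -2.25 to -0.44 in the others. The summed signal of the list, on a scale where the 75th percentile is 1, was 0.353 in WT3 and 0.656 in HET2. It ran from 0.438 to 0.821 in the other embryos. This sum rests most on Ang4, the brightest of the 6 probes in every embryo.

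Among 18 antimicrobial and Paneth cell genes with a probe, 10 were detected on at least 4 arrays, 0 were called by either contrast, and the low pair was lowest for 1 of 21 probes, a Tcf4 probe with a gap of 0.21. Tcf4 (E2-2) is a bHLH factor, not the TCF4 of Wnt signalling, whose gene is Tcf7l2. The median log2 difference between fathers over the tested probes of this list was -0.01, beside -0.00019 over all tested probes. Of 11 intestinal epithelium genes with a probe 8 were detected, among them Vil1, Cdx2 and Lgr5. Of the rest, Alpi and Cdh17 were well above background on 0 arrays and Sis on 1. Whether intestinal epithelium was present was not tested. Of 8 neutrophil genes 6 were detected. WT3 and HET2 were the lowest pair for 0 of the probes of both lists, and 0 were called. Of 42 beta-defensin genes, 5 were detected on at least 4 arrays, with 22 and 23 of 46 probes detected in WT1 and HET3 against 2 to 8 in the other embryos. Of 6 decidua and trophoblast genes with a probe, 5 were detected. The summed signal of this list was lowest in WT3, at 26.6, and next lowest in HET2, at 29.4. It was 31.1 in HET1 and up to 76.4 in the others. This sum rests most on the list's brightest probes, of Gcm1, a trophoblast regulator. The median log2 signal over the list's probes was instead highest in WT3, at 0.85. It was -0.03 in HET2 and lowest in HET3, at -0.82. The low pair was lowest for 1 of the list's 10 probes, of Gcm1, by 0.07 log2 units. The part of these tissues in the alpha-defensin values was not tested.

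For 3 of the 5 genes the 250 bases before the transcription start were held in the RefSeq table of GRCm38.p6. They are printed because the probes moved together, 5′ to 3′ on the strand of the gene, with TATAAA, the TATA box letters, and ATCAAAG, the core letters bound by TCF factors of the Wnt pathway, in capitals on either strand. Defa32 is at chr8:21528780-21529029 on the plus strand, Defa37 at chr8:21565136-21565385 on the plus strand and Defa42 at chr8:21456518-21456767 on the minus strand.
Defa32: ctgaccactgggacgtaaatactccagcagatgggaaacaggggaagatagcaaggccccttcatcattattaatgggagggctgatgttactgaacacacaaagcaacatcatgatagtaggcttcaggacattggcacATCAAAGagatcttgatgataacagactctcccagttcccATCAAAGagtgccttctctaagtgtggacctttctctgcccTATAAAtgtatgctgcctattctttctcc
Defa37: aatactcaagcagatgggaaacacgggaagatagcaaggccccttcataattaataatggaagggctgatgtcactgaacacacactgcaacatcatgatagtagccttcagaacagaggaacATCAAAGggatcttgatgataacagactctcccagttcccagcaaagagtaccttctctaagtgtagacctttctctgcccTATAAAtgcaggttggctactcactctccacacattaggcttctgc
Defa42: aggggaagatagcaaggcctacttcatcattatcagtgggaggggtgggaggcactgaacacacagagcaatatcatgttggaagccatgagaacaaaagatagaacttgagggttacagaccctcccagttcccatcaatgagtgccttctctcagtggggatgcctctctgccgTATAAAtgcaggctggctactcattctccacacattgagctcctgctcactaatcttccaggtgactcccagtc

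TATAAA was present in 3 of these 3 windows, in 15 of 16 windows of all Defa genes in the table and in 12.4% of 32851 windows of all genes. ATCAAAG was present in the Defa32 and Defa37 windows, in 13 of 16 Defa windows and in 3.21% of all windows. The motifs do not overlap, and a match is a description of the letters only. Between the 3 windows identity was 56.0% to 79.0%. The Defa37 window was identical to that of Defa36 and the Defa42 window to that of Defa43, and the Defa32 window was 98.4% identical to that of Defa2. No probe on the array was named for Defa36, Defa43 or Defa2, though probes without a symbol could measure them. The probe sequences were not used here, so which of the near-identical copies each probe binds is not given.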

How the data were processed

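RNA from 8 single E8.5 embryos was labelled with Cy3 and hybridised to one-colour Agilent arrays. The deposited scanner files hold an intensity per spot that the authors extracted with Agilent Feature Extraction (11.0.1.1 per the submitters' processing notes), after background subtraction, with no scaling from array to array. A series-wide table of intensities that they deposited too was an alternative, and no sample column (0) went unused. The paper's legends differ on the number of fathers, and no source ties an embryo to a father or litter, so p-values measure the spread between these samples only.

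From the log2 processed intensity, each array's 75th percentile was subtracted. Control spots and those marked as outliers were dropped, and a probe's spots averaged. Probes well above background on at least 4 arrays and above the lowest 20% by mean were tested with limma 3.58.1 (R 4.3.3; data.table version 1.17.8), with Benjamini-Hochberg adjustment over all 33106 (some without a value on some arrays, none of the members), and called at an adjusted p under 0.01 and at least 2-fold. Genes were named through their RefSeq accession in a table of GRCm38.p6 (27235 of 28685 matched). Tables and figures were made with Python 3.11.15, numpy 2.4.6, pandas 2.3.3, matplotlib 3.10.9 and Biopython 1.88. The fit was tested on simulated data. The members, lists and tests were chosen with earlier results of these data known. Genes named in the text were all probes of the 5 genes, other Defa probes, the 10 probes most alike, flanking genes and genes of the lists. The alternatives were other scalings, normexp (offset 50), other filters, covariates and blocks, other moderation and each embryo left out.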

Additional observations from a re-analysis of the deposited data

Results flagged for a closer look

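In groups of 4 embryos, 1 embryo was set apart where its gap to the nearest other embryo was a larger share of the group's range than Dixon's 95% limit allows. Of 44 groups examined, 6 passed. The limit served only to flag values and not as a test. Chance sets apart about 1 in 20 groups, but these probes were selected on, or ranked by likeness to, the low values of WT3 and HET2, so that these embryos stand apart was fixed by the choice and is not read against chance. Among embryos of Eed hypo/wt fathers, HET2 was set apart as the lowest for Defa37 probe A_55_P1995018 (0.864) and for the unnamed probes A_55_P2018865 (0.850), A_55_P2018869 (0.860) and A_55_P2004208 (0.845). Among embryos of Eed wt/wt fathers, WT3 was set apart as the lowest for A_55_P2018865 (0.833) and for the Sycp1 probe (0.900).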

How the results depend on the processing

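The father's genotype and sex gave 0 called alpha-defensin probes under every alternative run, all chosen with earlier results known. Leaving out WT1 and HET3 together was added after seeing the data. Over all probes the father contrast called 0 to 1 probes with each embryo left out. The 1 was Prim2 without WT1, and also without WT1 and HET3, and A_66_P107680 (Med8) without HET4. Sex called 5 probes with no filter on dim probes, 0 with detection on all 8 arrays, 7 without WT1 and HET3, and 4 to 9 with each embryo left out, against 11. Replicate numbers did not pair the embryos (correlations of same-numbered deviations from -0.59 to -0.04). With the replicate block the father contrast called 0 probes (873 at an unadjusted p under 0.05) and sex 0. Normexp left 2 of the 5 probes with a gap of 1 log2 unit or more.

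No father difference of the 5 probes passed, and their signs changed. With the median shift Defa32 A_55_P1961408 had -0.0764 and Defa42 -0.00943. With quantile normalization Defa29 had -0.225, Defa32 -0.0457 and Defa42 -0.379. With normexp Defa3 had 0.106, Defa29 -0.0723 and Defa42 -0.0102. With a random block on the first part of the embryo code the Defa32 probes had -0.127 and -0.0431 and Defa42 -0.0189. Without WT1 and HET3 Defa32 A_55_P1961408 had -0.127. With each embryo left out Defa3 A_55_P2077649 ran from -1.12 to 1.13, Defa29 from -0.87 to 1.13, Defa32 A_55_P1961408 from -1.05 to 1.42, Defa37 from -0.67 to 1.56, Defa3 A_55_P1961410 from 0.08 to 0.93, Defa42 from -1.05 to 1.23, Defa3 A_55_P2064913 from -0.53 to 0.19 and Defa32 A_55_P1961407 from -0.68 to 1.19. The sex difference of A_55_P1961407 was 0.00906 with the median shift, 0.146 with quantile normalization, 0.190 without WT1 and HET3 and -1.13 to 1.12 with each embryo left out. The other sex differences kept their sign. Of the 8 probes, 5 had an unadjusted p under 0.05 for sex without HET4, 4 with the median shift and 1 each with quantile normalization and normexp, against 0, and the selection on a female pair makes this no test of sex. The cause of these changes was not tested. Signal near background limits the low values.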
